A study of Homo sapiens with 36 samples.

Results

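The miR-34 family, miR-192, miR-194 and miR-215 are microRNAs reported to rise when the transcription factor p53 is active. They were followed here in 36 small RNA libraries of WI-38, untransformed human fibroblasts from lung. The rows taken were the 10 mature miRNAs hsa-miR-34a-5p, hsa-miR-34a-3p, hsa-miR-34b-5p, hsa-miR-34b-3p, hsa-miR-34c-5p, hsa-miR-34c-3p, hsa-miR-449c-5p, hsa-miR-192-5p, hsa-miR-194-5p and hsa-miR-215-5p (the prefix hsa, for human, is left out below), chosen by name out of 1508 miRNAs in the table. The libraries came from 18 conditions with 2 biological replicates each. Ctrl cells were proliferating and untreated. DDR-Sen cells, in which senescence follows the DNA damage response, received 250 nM doxorubicin (DXR), a drug that breaks DNA, for 24 h. PMD-Sen cells, in which senescence follows plasma membrane damage, received 0.0095% sodium dodecyl sulphate (SDS), a detergent, for 24 h. Both series were harvested daily from D0 to D4 and then at D6, D8 and D16, counted in days from the washout, so D0 cells had just finished the exposure. RS cells had reached replicative senescence by repeated passage and had a population doubling level of 54 to 56. All groups were cultures of the same cell strain, and 1 untreated group served both series, so comparisons with Ctrl share the same 2 libraries.

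p53 is stabilised by DNA damage and binds the promoters of the miR-34a and miR-34b/c genes, whose miRNAs lower the levels of cell cycle and anti-apoptotic proteins. miR-192, miR-194 and miR-215 come from a pair of clusters that are also known as p53 targets, and they are abundant in liver, gut and kidney. The miR-449 cluster carries the same targeting letters as miR-34, is abundant in multiciliated epithelium and is known to be driven by E2F1, a factor of cell cycle entry, rather than by p53.

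A miRNA finds its targets through its seed, bases 2 to 8 from its 5′ end, so the mature sequences are shown first, with the seed in capitals and the rest in lower case. RefSeq (GRCh38.p14) gave a sequence for 9 of the 10 members. The member without one is miR-34c-5p, so its absence from the list says nothing about its seed. miR-449a and miR-449b-5p are added because they are read beside miR-449c-5p. The arms that carry the letters GGCAGUG come first, then the 3p arms of the miR-34 genes, then miR-192, miR-215 and miR-194.
miR-34a-5p: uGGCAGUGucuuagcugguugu
miR-449a: uGGCAGUGuauuguuagcuggu
miR-449b-5p: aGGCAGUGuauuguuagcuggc
miR-34b-5p: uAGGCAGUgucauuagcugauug
miR-449c-5p: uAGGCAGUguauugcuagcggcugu
miR-34a-3p: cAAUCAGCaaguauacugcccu
miR-34b-3p: cAAUCACUaacuccacugccau
miR-34c-3p: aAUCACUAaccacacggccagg
miR-192-5p: cUGACCUAugaauugacagcc
miR-215-5p: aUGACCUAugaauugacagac
miR-194-5p: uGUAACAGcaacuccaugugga

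miR-34a-5p, miR-449a and miR-449b-5p had the seed GGCAGUG. In miR-34b-5p and miR-449c-5p the same letters began at base 3 instead of base 2, so these 2 shared the seed AGGCAGU. miR-192-5p and miR-215-5p had the same seed and matched at 19 of 21 bases, with the differences C1A and C20A, written as the base of miR-192-5p, the position from the 5′ end and the base of miR-215-5p. In 4 libraries both had counts that were not whole, as happens when reads are divided between similar miRNAs. The 3 miR-34 3p arms each had a seed of their own, and miR-194-5p shared its seed with no other member.

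The hairpins lie at 5 places (GRCh38.p14, with overlapping genes from GENCODE v44). MIR34A is at chr1:9151668-9151777 on the minus strand, in an exon of the long noncoding RNA MIR34AHG. MIR34B (chr11:111512938-111513021, plus strand) and MIR34C (chr11:111513439-111513515) are 417 bases apart in exons of the long noncoding RNA MIR34BHG, and lie opposite an intron of BTG4. MIR449C (chr5:55172262-55172353, minus strand) is in an intron of CDC20B, 1639 bases from MIR449A in the same gene. MIR192 (chr11:64891137-64891246, minus strand) and MIR194-2 are 108 bases apart in MIR194-2HG. MIR215 (chr1:220117853-220117962, minus strand) and MIR194-1 (chr1:220118157-220118241) lie opposite an intron of IARS2. MIR194-1 and MIR194-2 give the same mature sequence, so the miR-194-5p counts cannot be assigned to either place.

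The authors deposited expected counts per mature miRNA, without normalization. Totals ranged from 81668 (PMD-Sen D0) to 1933435 (PMD-Sen D16) counts, with a median of 376989, and the levels below are counts scaled to a common library total (CPM) with TMM, a normalization that assumes most miRNAs do not change. A library at or under 3 counts was taken as being at the floor, which was 1.63 to 33.4 CPM depending on depth and covers counting error only. Tests were edgeR quasi-likelihood tests over the 360 miRNAs that passed a low-count filter, and a miRNA was called where its Benjamini-Hochberg adjusted p over all 360 was below 0.05. Markers known for fibroblasts were high in every library, with a summed level of 48279 to 125189 CPM over 5 of 6. The other, miR-199a-3p, shares a row with miR-199b-3p and is not in the sum. That row ranged from 2238 CPM, in RS, to 8627 CPM, in PMD-Sen. Of the blood cell markers, miR-486-5p had 134 to 497 CPM in PMD-Sen, 282 to 1108 CPM in DDR-Sen, 497 to 1047 CPM in RS and 194.5 to 202 CPM in Ctrl, while miR-451a, miR-142-5p and miR-223-3p had at most 4 counts in any library. The part of any other cell type in the results below was not tested.

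The members differed greatly in abundance. Over all 36 libraries miR-34a-5p had 8301 counts, miR-194-5p 1121, miR-34c-5p 784, miR-192-5p 682, miR-34b-3p 282, miR-449c-5p 239 and miR-34c-3p 171, and these 7 passed the filter. The other 3 were too rare to test. miR-34a-3p, the passenger arm of miR-34a, had 116 counts and was above the floor in 11 libraries. miR-34b-5p had 28 counts and was above the floor in 2 libraries. miR-215-5p had 24 counts, was not above the floor in any library and was at 0 in both Ctrl and both RS libraries, so its level was at or under 3 counts throughout.

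The arms of the hairpins were unequal. From MIR34A the 5p arm had 8301 counts over all libraries and the 3p arm 116. In the 11 libraries with miR-34a-3p above the floor the ratio was 18.6 to 79, with a median of 42.2, but these are the libraries in which the 3p arm was high enough to count, and the ratio reached 285 (285 counts against 1) among the others. From MIR34C the 5p arm was the more abundant, with 784 counts against 171. From MIR34B it was the 3p arm, with 282 counts against 28. Among the 5p arms of the 6 miR-34 and miR-449 genes, miR-34a-5p took 76.9% to 92.1% of the counts in Ctrl, 80.5% to 94.3% in PMD-Sen, 79.6% to 96.8% in DDR-Sen and 87.7% to 91.6% in RS. Most reads of these arms were miR-34a-5p in every library.

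miR-34a-5p, the main effector of the family, was higher in DDR-Sen than in PMD-Sen from the end of the exposure to D4, and the series overlapped from D6 to D16. In Ctrl it had 352 and 352 CPM. At D0 the DDR-Sen libraries had 502 and 669 CPM and the PMD-Sen libraries 239 and 234 CPM, although the PMD-Sen values rested on 26 and 21 counts. At D1 the values were 675 and 550 CPM in DDR-Sen and 337 and 314 CPM in PMD-Sen. At each of these days both DDR-Sen libraries lay above both PMD-Sen libraries. At D2 DDR-Sen had 716 and 416 CPM and PMD-Sen 396 and 294 CPM. At D3 DDR-Sen had 705 and 586 CPM and PMD-Sen 398 and 340 CPM. At D4, where DDR-Sen peaked, it had 775 and 626 CPM and PMD-Sen 393 and 303 CPM. The groups still did not overlap. At D6 DDR-Sen had 661 and 521 CPM and PMD-Sen 533 and 412 CPM, and at D8 DDR-Sen had 645 and 434 CPM and PMD-Sen 484 and 412 CPM. At D16 DDR-Sen had 508 and 595 CPM and PMD-Sen 649 and 594 CPM. The groups overlapped on these last 3 days. With 2 libraries per group, a lack of overlap says little by itself: miR-194-5p, not called between the series, also lay higher in DDR-Sen without overlap on 5 of 8 days. RS had 444 and 697 CPM, a spread as wide as most of the DDR-Sen range.

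**Figure D1:**
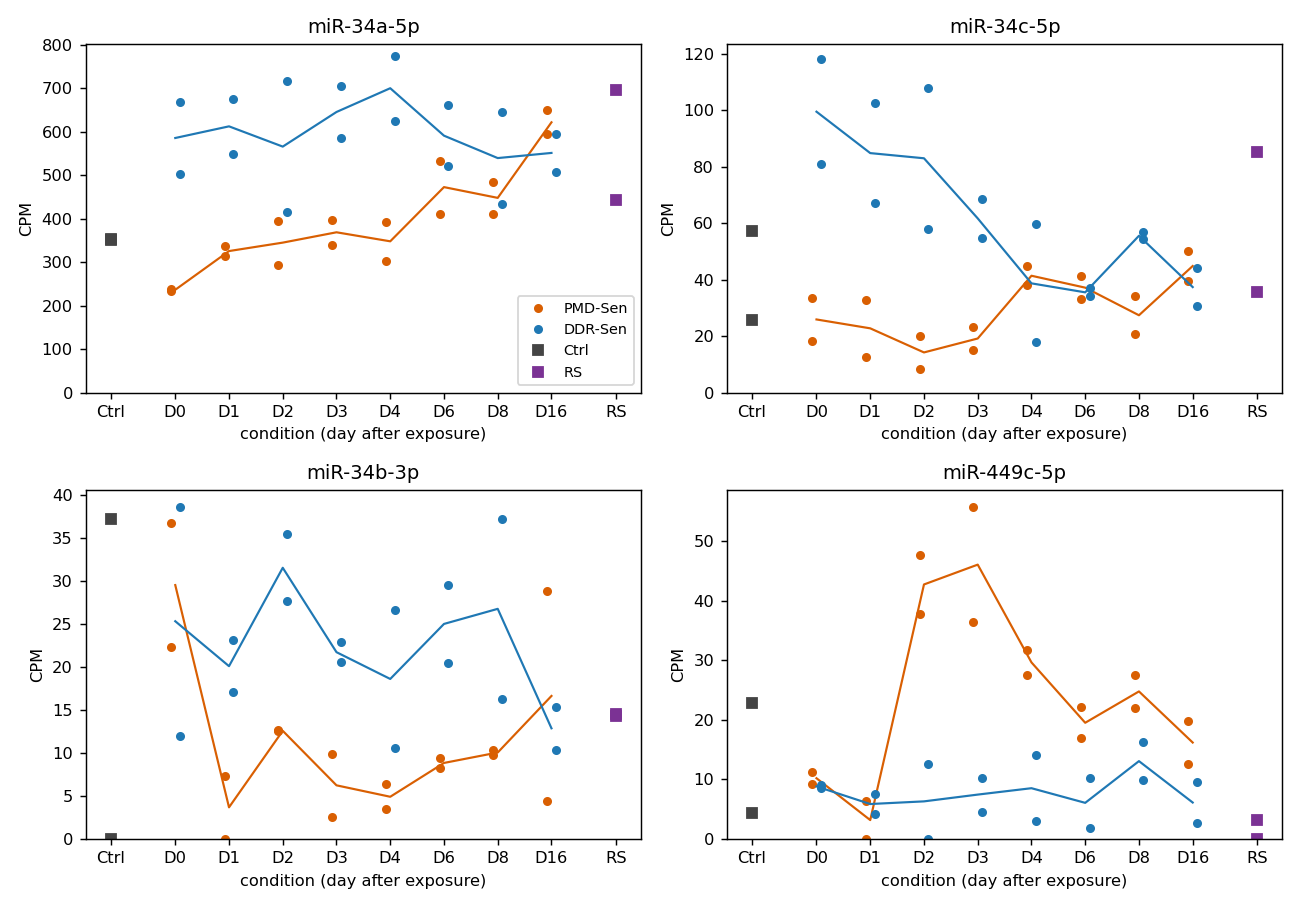
CPM of miR-34a-5p, miR-34c-5p, miR-34b-3p and miR-449c-5p by condition. Points are libraries (2 per condition), lines join the means of PMD-Sen (orange) and DDR-Sen (blue), and squares are Ctrl and RS. Days are evenly spaced and not to scale. For miR-34a-5p the series are apart up to D4 and meet at D16, and miR-449c-5p has its highest points in PMD-Sen at D2 and D3.

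Averaged over D1 to D16 with each day weighted equally, miR-34a-5p was upregulated in DDR-Sen relative to PMD-Sen by 0.55 on the log2 scale (SE 0.10), or 1.46-fold, with an adjusted p of 0.000235 (edgeR). The 95% interval was 0.34 to 0.76. This call held in each of the 28 fits that left out 1 of these libraries, with 0.45 to 0.58. The median difference of all 360 miRNAs was -0.02, and 20% of them were called in this comparison. miR-486-5p, listed above among the blood cell markers, was also higher in DDR-Sen here (1.09, SE 0.14, adjusted p = 1.44e-06). The paper lists miR-486-5p as a known senescence-associated miRNA that was upregulated in DDR-Sen. The blood cell markers miR-451a, miR-142-5p and miR-223-3p had at most 4 counts in any library. The part of miR-486-5p in the difference of miR-34a-5p was not tested.

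The same contrast at single days rested on 4 libraries and was less certain. miR-34a-5p was called at D0 (log2 difference 1.30, SE 0.32, adjusted p = 0.0245), and at D4 (1.00, SE 0.27, adjusted p = 0.0309). The D0 call was lost without PMD-Sen D0 replicate 1, PMD-Sen D0 replicate 2 or DDR-Sen D0 replicate 2 (adjusted p = 0.297, 0.122 and 0.208), and the D4 call was lost without any 1 of its 4 libraries (adjusted p from 0.158 to 0.42). At D1, D2 and D3 the differences were 0.91, 0.71 and 0.81 with adjusted p of 0.0656, 0.17 and 0.16. At D6 and D8 they were 0.31 and 0.27, and at D16 the difference was -0.17 with a 95% interval of -0.71 to 0.36. Few miRNAs were called at single days: 1.67% at D0, 1.94% at D1, 4.17% at D2, 0.833% at D3, 3.33% at D4, 0.278% at D6, 0% at D8 and 0.556% at D16.

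**Figure D2:**
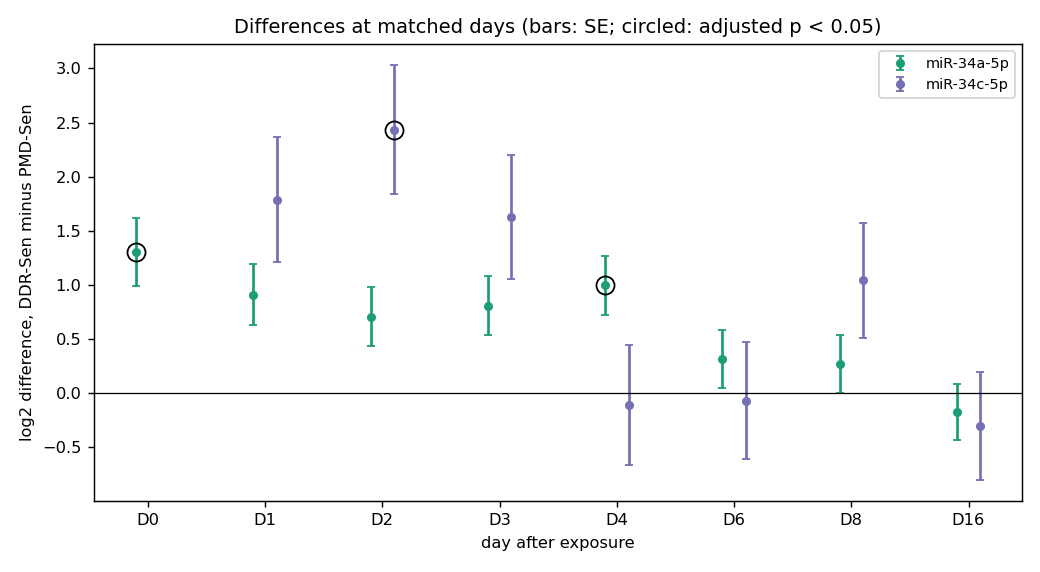
Fitted log2 difference between DDR-Sen and PMD-Sen at matched days for miR-34a-5p and miR-34c-5p. Bars are the SE of edgeR, and circles mark an adjusted p below 0.05. The value of miR-34c-5p at D0 is left out because PMD-Sen was at or under 3 counts there. miR-34a-5p runs from 1.30 at D0 to -0.17 at D16.

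miR-34a-5p rose with time in PMD-Sen, whereas no trend was detected in DDR-Sen. The trend is the slope per unit of log2(day + 1). It was 0.31 in PMD-Sen (SE 0.06, adjusted p = 0.000396) and -0.03 in DDR-Sen (SE 0.06, adjusted p = 0.756). The difference of the slopes, DDR-Sen minus PMD-Sen, was -0.34 (SE 0.08, adjusted p = 0.00718). The PMD-Sen slope and the difference of the slopes were called in every fit that left out 1 library. Trends were common: 34.4% of all tested miRNAs were called in PMD-Sen and 25.8% in DDR-Sen, and 10.6% had slopes that differed between the series.

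Relative to Ctrl, miR-34a-5p was above both untreated libraries in 16 of 16 DDR-Sen libraries, in 9 of 16 PMD-Sen libraries and in 2 of 2 RS libraries. The other 7 PMD-Sen libraries were below both, since the Ctrl libraries had nearly the same level. Such counts were not particular to it: miR-22-3p was above both in 15 of 16 libraries of each series, and miR-16-5p below both in 15 of 16 DDR-Sen libraries. The share over all miRNAs was not counted. The mean of DDR-Sen D1 to D16 was 0.77 above Ctrl on the log2 scale (SE 0.22, adjusted p = 0.0185), or 1.70-fold. This call rested on the 2 Ctrl libraries: the adjusted p was 0.27 without Ctrl replicate 1 and 0.307 without Ctrl replicate 2. It was also lost without DDR-Sen D3 replicate 1, DDR-Sen D4 replicate 2 or DDR-Sen D6 replicate 2 (adjusted p from 0.0514 to 0.0545), while the difference stayed between 0.66 and 0.81. The mean of PMD-Sen was 0.22 above Ctrl (SE 0.22, adjusted p = 0.603), with an interval of -0.22 to 0.66. In these comparisons 15.3% and 7.5% of all miRNAs were called, and miR-34a-5p was the 1 member called for DDR-Sen and 0 members were called for PMD-Sen (at an unadjusted p below 0.05, and by DESeq2, likewise 1 and 0).

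At single days against Ctrl, miR-34a-5p was called at DDR-Sen D4 (0.99, SE 0.28, adjusted p = 0.0285) and at PMD-Sen D16 (0.82, SE 0.27, adjusted p = 0.0361). Both calls were lost without any 1 of their 4 libraries (adjusted p from 0.172 to 0.301 and from 0.161 to 0.265) and under most of the other processing settings. At the other DDR-Sen days the log2 difference was 0.62 to 0.88 and was not called. At PMD-Sen D0 to D4 it was -0.57 to 0.07. On the other 14 days 0 members were called by either edgeR or DESeq2, and 0 to 2 had an unadjusted p below 0.05 in edgeR. Among all miRNAs the called share in DDR-Sen was 0% at D0, 0.278% at D1, 0.278% at D2, 4.44% at D3, 6.67% at D4, 10.6% at D6, 11.4% at D8 and 23.1% at D16. In PMD-Sen it was 0.278% at D0, 2.22% at D1, 2.5% at D2, 0.278% at D3, 3.89% at D4, 6.67% at D6, 10% at D8 and 16.7% at D16.

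In RS miR-34a-5p was 0.70 above Ctrl (SE 0.27, adjusted p = 0.0622), with a 95% interval of 0.14 to 1.26. Without RS replicate 1 the difference was 1.10 and passed the threshold (adjusted p = 0.0156). 0 of the 7 tested members were called in RS by edgeR, against 22.5% of all miRNAs, 2 had an unadjusted p below 0.05 and 0 were called by DESeq2. DDR-Sen D16 differed from RS by -0.05 (interval -0.59 to 0.49) and PMD-Sen D16 by 0.12 (interval -0.41 to 0.65), so differences within these bounds were not excluded. In these comparisons 4.44% and 9.17% of all miRNAs were called, with 0 members by edgeR or DESeq2 and 0 and 1 members at an unadjusted p below 0.05. By mean level over the 18 conditions, DDR-Sen D4 was highest (700 CPM), followed by DDR-Sen D3 (646 CPM) and PMD-Sen D16 (622 CPM). RS (570 CPM) lay in the middle of the DDR-Sen conditions. Ctrl (352 CPM) lay between PMD-Sen D3 (369 CPM) and PMD-Sen D4 (348 CPM), and PMD-Sen D0 was lowest (236 CPM). Libraries of neighbouring conditions in this order overlapped, apart from PMD-Sen D8 above PMD-Sen D3 and PMD-Sen D1 above PMD-Sen D0.

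miR-34c-5p, from the second p53-responsive gene, was highest at the end of the DXR exposure and fell afterwards. Ctrl had 25.8 and 57.2 CPM. At D0 DDR-Sen had 118 and 81 CPM and PMD-Sen 18.4 and 33.4 CPM, the latter from 2 and 3 counts. At D1 DDR-Sen had 103 and 67.1 CPM and PMD-Sen 33 and 12.6 CPM. DDR-Sen lay above PMD-Sen in every library pair on these days. How many of all miRNAs did so was not counted. At D2 DDR-Sen had 108 and 58 CPM and PMD-Sen 20 and 8.41 CPM. At D3 DDR-Sen had 54.7 and 68.7 CPM and PMD-Sen 23.1 and 15.2 CPM. At D4 DDR-Sen had 59.6 and 17.8 CPM and PMD-Sen 38 and 44.8 CPM, where the groups first overlapped. At D6 DDR-Sen had 34.1 and 36.9 CPM and PMD-Sen 41.2 and 33.2 CPM. At D8 DDR-Sen had 56.8 and 54.3 CPM, again above PMD-Sen with 20.7 and 34.1 CPM. At D16 DDR-Sen had 44.1 and 30.7 CPM and PMD-Sen 50.1 and 39.6 CPM, and RS had 35.8 and 85.3 CPM. These last values lay around the Ctrl range, and the RS libraries stood further apart than those of most conditions.

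The D1 to D16 mean of miR-34c-5p was 0.92 higher in DDR-Sen than in PMD-Sen (SE 0.21, adjusted p = 0.00169), or 1.89-fold, and was called in each of the 28 fits that left out 1 library (0.77 to 1.07). At D2 the difference was 2.44 (SE 0.60, adjusted p = 0.0163), which was not called without PMD-Sen D2 replicate 2 or DDR-Sen D2 replicate 1 (adjusted p = 0.343 and 0.299). At D1 it was 1.79 (adjusted p = 0.0744). At D0 the summed counts gave a ratio of 4.07, with an exact 95% counting interval of 1.68 to 12.9, but the difference was not called (adjusted p = 0.156). The slope was -0.39 in DDR-Sen (SE 0.10, adjusted p = 0.0045) and 0.24 in PMD-Sen (SE 0.15, adjusted p = 0.22), and the difference of the slopes was -0.63 (SE 0.18, adjusted p = 0.0166). The difference of the slopes was not called without PMD-Sen D0 replicate 1 or PMD-Sen D16 replicate 1 (adjusted p = 0.0834 and 0.0643). Relative to Ctrl neither mean was called: it was 0.31 for DDR-Sen and -0.61 for PMD-Sen. The 2 Ctrl libraries differed so much that the sign of the first turned without Ctrl replicate 1 (-0.16) and that of the second without Ctrl replicate 2 (0.14).

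miR-34b-3p is cut from the transcript that also gives miR-34c, and it differed between the series in the same direction. It had 0 and 37.2 CPM in Ctrl, so these 2 libraries span nearly the whole range of the miRNA and comparisons with Ctrl say little. In the D1 to D16 libraries it had 2.53 to 28.8 CPM in PMD-Sen, apart from 0 counts in PMD-Sen D1 replicate 2, and 10.4 to 37.2 CPM in DDR-Sen. Both DDR-Sen libraries were above both PMD-Sen libraries on 6 of 8 days, and the groups overlapped at D0 and D16. The same was seen on 5 of 8 days for miR-34c-3p and for miR-194-5p, which were not called between the series. The share of all miRNAs that separated as often was not counted. The D1 to D16 mean was 1.30 higher in DDR-Sen (SE 0.35, adjusted p = 0.00762) and was called in all 28 fits that left out 1 library, with 1.16 or more. PMD-Sen D1 was at or under the floor, so the fitted value depends on the prior count. Replicate 2 of PMD-Sen D2, D3, D4, D6 and D16 was at or under it too, with 3, 1, 1, 3 and 2 counts. The summed counts, which give the deep PMD-Sen D16 replicate 1 more weight, had a ratio of 1.68 (counting interval 1.28 to 2.22). miR-34c-3p was 0.71 higher in DDR-Sen (SE 0.36, adjusted p = 0.166) and was not called, and the sign turned without DDR-Sen D3 replicate 1 (-0.08).

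**Figure D3:**
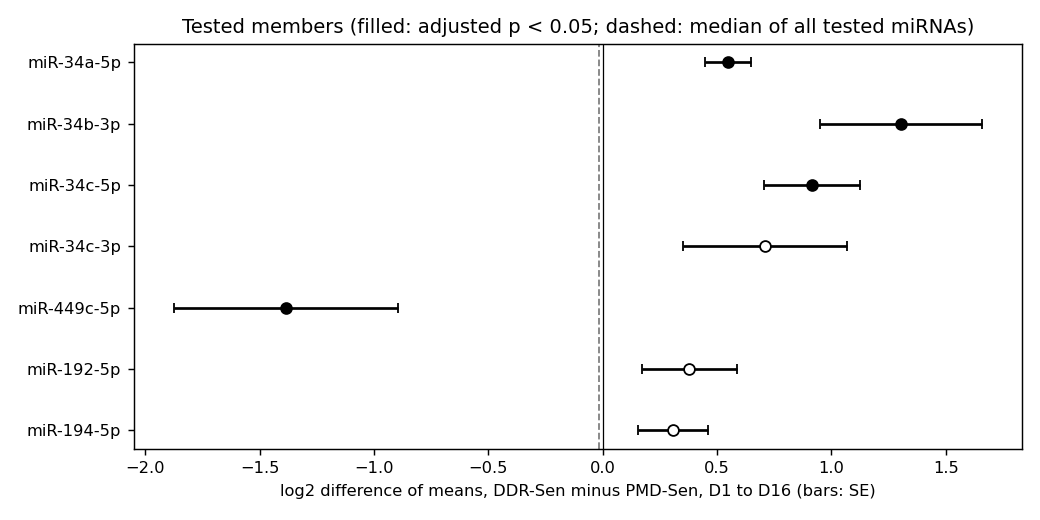
Fitted log2 difference between the D1 to D16 means of DDR-Sen and PMD-Sen for the 7 tested members. Bars are the SE of edgeR, filled points have an adjusted p below 0.05, and the dashed line is the median of all 360 miRNAs (-0.02). 6 of 7 members are above 0 and miR-449c-5p is below.

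In this comparison of means 4 of the 7 tested members were called, 3 of them higher in DDR-Sen, while among all 360 miRNAs 39 were called higher and 33 called lower. The member called lower, miR-449c-5p, passed the low-count filter only through PMD-Sen libraries, where it was high, so its call is not free of that selection. It was kept in 15 of the 28 fits that left out 1 library. The median of the 7 members was 0.55.

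miR-449c-5p went the other way. This miRNA has the miR-34 letters at base 3, like miR-34b-5p, but comes from another gene. In Ctrl it had 1 and 8 counts (4.3 and 22.9 CPM). PMD-Sen was at or under the floor at D0 and D1 (1, 1, 0 and 1 counts). At these depths 3 counts stand for 27.6 and 33.4 CPM at D0 and 11.0 and 18.9 CPM at D1, so levels below these bounds cannot be told apart there. PMD-Sen had 47.6 and 37.8 CPM at D2 and 36.3 and 55.7 CPM at D3, the values furthest above these bounds. It had 31.7 and 27.6 CPM at D4, 16.8 and 22.1 CPM at D6, 27.6 and 21.9 CPM at D8 and 12.5 and 19.8 CPM at D16. No trend with day was called in PMD-Sen (slope 0.37, 95% interval -0.14 to 0.88, adjusted p = 0.256). In DDR-Sen it was 0 to 16.3 CPM over all 16 libraries, with 0 to 7 counts each. On each day from D2 to D16 both DDR-Sen libraries lay below both PMD-Sen libraries. How often this occurred among all miRNAs was not counted. In RS there were 0 and 2 counts (0 and 3.22 CPM).

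The D1 to D16 mean of miR-449c-5p was 1.38 lower in DDR-Sen (log2 difference -1.38, SE 0.49, adjusted p = 0.0424), with DDR-Sen D3 and D6 and PMD-Sen D1 at or under the floor. This call was close to the threshold: it was kept in 15 of the 28 fits that left out 1 library, where the difference was -2.08 to -0.94. It was furthest from the threshold without PMD-Sen D1 replicate 2 (-0.94, adjusted p = 1.00), since the other PMD-Sen D1 library had 0 counts, and the adjusted p was 0.0515 to 0.0644 in the other 12 fits that lost it. The summed counts were 44 in DDR-Sen and 175 in PMD-Sen, a ratio of 0.307 (counting interval 0.215 to 0.429). miR-449c-5p passed the low-count filter only through PMD-Sen libraries, where it was high. Neither the test nor this ratio is therefore free of that selection. At no single day did the difference from DDR-Sen or from Ctrl pass the threshold, and the smallest adjusted p against DDR-Sen was 0.0806, at D2. For RS the counting ratio to Ctrl was 0.124 (interval 0.0131 to 0.601), from 2 and 9 counts, and edgeR's adjusted p was 0.0695. PMD-Sen D16 had 32 counts and RS 2, a ratio of 7.26 (interval 1.85 to 62.5) with an adjusted p of 0.0672.

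The neighbours of miR-449c in CDC20B were too rare to test but were counted mostly in the same libraries. miR-449a had 48.5 counts over the 16 PMD-Sen libraries, 5 over the 16 DDR-Sen libraries, 2 over RS and 7 over Ctrl, of which all 7 were in Ctrl replicate 2. miR-449b-3p had 14 counts, all in PMD-Sen from D2 on, with 4 and 5 of them at D2. miR-449b-5p had 1.5 counts, in 1 PMD-Sen library. miR-449c-5p took 10% and 10.3% of the 5p arms of the miR-34 and miR-449 genes at PMD-Sen D2 and 7.72% and 13.3% at D3, and at most 3.23% in any DDR-Sen library.

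miR-192-5p and miR-194-5p, which are neighbours on chromosome 11, were not called different between the series, and miR-194-5p fell with time in both, while for miR-192-5p a fall was called in PMD-Sen and rested on single libraries. In Ctrl miR-194-5p had 81.6 and 82.9 CPM. In DDR-Sen it had 112 and 123 CPM at D0, 122 and 107 CPM at D1 and 62.2 and 55.6 CPM at D16. In PMD-Sen it had 91.9 and 89.2 CPM at D0, 98.9 and 81.7 CPM at D1 and 52.2 and 26.4 CPM at D16. The late libraries lay below Ctrl in both series, and RS, with 35.8 and 64.4 CPM, did too. The slope was -0.28 in DDR-Sen (SE 0.08, adjusted p = 0.00757), called in all 16 fits that left out 1 library, and -0.33 in PMD-Sen (SE 0.10, adjusted p = 0.00771). The PMD-Sen call was lost without PMD-Sen D0 replicate 1, PMD-Sen D0 replicate 2 or PMD-Sen D16 replicate 2 (adjusted p = 0.0817, 0.0663 and 0.109). The slopes did not differ detectably (0.05, SE 0.12, adjusted p = 0.872).

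miR-192-5p had 47.3 and 60.1 CPM in Ctrl. In DDR-Sen it had 58 and 39 CPM at D0, 96.2 and 65 CPM at D1 and 31.1 and 26.9 CPM at D16. In PMD-Sen it had 36.8 and 78 CPM at D0, 87.9 and 12.6 CPM at D1, the latter from 2 counts, and 20.1 and 17.6 CPM at D16. RS had 40.6 and 35.4 CPM. At D16 all 4 libraries of both series were below both Ctrl libraries. The slope was -0.36 in PMD-Sen (SE 0.13, adjusted p = 0.0383) and -0.24 in DDR-Sen (SE 0.11, adjusted p = 0.095). The PMD-Sen call was kept in 2 of the 16 fits that left out 1 library, and the slope was -0.14 (adjusted p = 0.544) without PMD-Sen D1 replicate 1 and -0.20 (adjusted p = 0.455) without PMD-Sen D0 replicate 2.

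**Figure D4:**
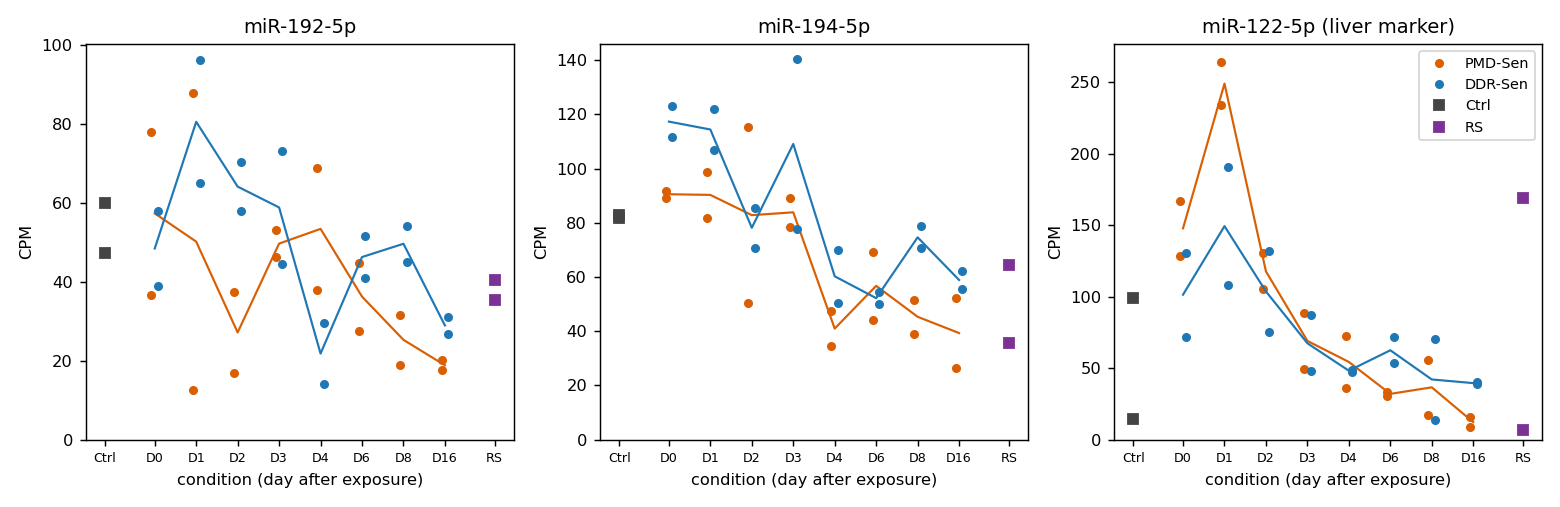
CPM of miR-192-5p, miR-194-5p and miR-122-5p, a miRNA known for liver, by condition. Points are libraries (2 per condition), lines join the means of PMD-Sen (orange) and DDR-Sen (blue), and squares are Ctrl and RS, with evenly spaced days. The mean of each is lower at D16 than at D1 in both series, although 1 PMD-Sen D1 library of miR-192-5p (12.6 CPM) lies below the D16 points.

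The D1 to D16 means of miR-194-5p and miR-192-5p were 0.31 (SE 0.15, interval -0.01 to 0.62) and 0.38 (SE 0.21, interval -0.04 to 0.80) higher in DDR-Sen than in PMD-Sen, which was not called (adjusted p = 0.159 and 0.21). The second passed the threshold without PMD-Sen D1 replicate 1 (0.69, adjusted p = 0.0204). Relative to Ctrl the means of miR-194-5p were -0.13 in DDR-Sen and -0.44 in PMD-Sen, those of miR-192-5p were -0.23 and -0.61, and the adjusted p was 0.406 to 0.826. Neither miRNA was therefore shown to rise after DXR at this depth.

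A miRNA of other tissues fell with them. miR-122-5p, which is largely restricted to hepatocytes, had 234 to 264 CPM at PMD-Sen D1 and 8.81 to 15.8 CPM at PMD-Sen D16, and 108 to 191 CPM and 38.9 to 40.3 CPM on the same days of DDR-Sen. Its slope was -0.97 in PMD-Sen (SE 0.19, adjusted p = 0.000183) and -0.46 in DDR-Sen (SE 0.16, adjusted p = 0.0332). The replicates of miR-122-5p stood far apart in Ctrl (14.3 and 98.8 CPM) and in RS (6.44 and 169 CPM). Of the 8 epithelial markers, all of which the table lists, only miR-200c-3p passed the low-count filter. The slope of miR-200c-3p was -0.60 in PMD-Sen (SE 0.16, adjusted p = 0.00463) and -0.27 in DDR-Sen (SE 0.12, adjusted p = 0.095). The summed level of the 8 was 28.6 to 81.6 CPM in Ctrl, 17.1 to 163 CPM in PMD-Sen, 30.7 to 99.9 CPM in DDR-Sen and 54.7 to 117 CPM in RS. miR-200b-3p had 4.3 to 5.72 CPM in Ctrl, 2.53 to 37.8 CPM in PMD-Sen, 0 to 25.8 CPM in DDR-Sen and 23.9 to 27.4 CPM in RS. miR-375 had up to 8.59 CPM in Ctrl, 11.1 CPM in PMD-Sen, 16.8 CPM in DDR-Sen and 31 CPM in RS. Neither passed the filter, so no trend with day was tested for them. miR-141-3p and miR-205-5p had at most 1 count in any library. Whether RNA of another source had a part in the levels of miR-192-5p and miR-194-5p was not tested.

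Over the 18 condition means of log2 CPM, the miRNAs whose pattern was most like that of miR-34a-5p were miR-335-5p (Pearson r = 0.88), miR-107 (0.85) and miR-26a-5p (0.84). For miR-34c-5p they were let-7g-5p (0.78), miR-335-5p (0.78) and miR-30e-3p (0.77). For miR-34b-3p they were miR-490-5p (0.66), miR-26b-5p (0.65) and let-7f-5p (0.62), and for miR-34c-3p miR-6798-3p (0.78), miR-3620-3p (0.56) and miR-1226-3p (0.53). miR-449c-5p was most like miR-584-5p (0.83), miR-299-3p (0.65) and miR-1185-2-3p (0.62). miR-194-5p was most like miR-224-5p (0.74), miR-132-3p (0.74) and miR-200c-3p (0.71), and miR-192-5p like miR-3177-3p (0.60), miR-194-5p (0.60) and miR-132-5p (0.57). These values are descriptions over 18 means of libraries that differ in depth. Between members, miR-34a-5p had r of 0.64 with miR-34c-5p and 0.42 with miR-34b-3p, -0.40 with miR-449c-5p and -0.11 with miR-194-5p.

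Of 14 other miRNAs that have been reported to rise with p53, by transcription or by faster processing, 12 were tested. In DDR-Sen, over D1 to D16 against Ctrl, 0 of the 12 were called higher and 3 were called lower, with 15.3% of all miRNAs called. Called or not, 7 of the 12 were higher, and the median log2 difference of the 12 was 0.09 (all miRNAs 0.02). The 3 called lower were miR-16-5p (-0.87, SE 0.18, adjusted p = 0.0012), a repressor of cyclins, miR-145-5p (-0.77, SE 0.17, adjusted p = 0.00194) and miR-143-3p (-0.84, SE 0.26, adjusted p = 0.0256). miR-145-5p and miR-143-3p are made from a shared transcript in mesenchymal cells and are also on the fibroblast marker list. In PMD-Sen miR-16-5p was the 1 called, and it was lower (-0.73, SE 0.18, adjusted p = 0.00928), with 7.5% of all miRNAs called. In RS miR-16-5p, miR-145-5p and miR-15a-5p were called lower and miR-107 was called higher (0.79, SE 0.28, adjusted p = 0.0391), with 22.5% of all miRNAs called. miR-107 had 163 and 206 CPM in Ctrl and 293 and 348 CPM in RS, with no overlap. Between the series, 0 of the 12 were called higher in DDR-Sen and 2 were called lower, miR-1246 and miR-145-5p. Called or not, 2 of the 12 were higher in DDR-Sen. miR-145-5p differed by -0.25 (SE 0.09, adjusted p = 0.0479). miR-1246 was above the floor in 12 of the 36 libraries, with at most 73.5 CPM in PMD-Sen and 20.5 CPM in DDR-Sen. It passed the low-count filter only through PMD-Sen libraries, where it was high, so its call is not free of that selection. With 20% of all miRNAs called between the series, and 7.5% for PMD-Sen against Ctrl, the 2 and 1 of 12 called are near the background share.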

How the data were processed

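Small RNA was sequenced from WI-38 cells under 18 conditions with 2 biological replicates each. After trimming and mapping to GRCh38, the authors used exceRpt to count reads per miRBase miRNA and deposited expected counts, in which reads that match several miRNAs are divided, so that some values are not whole. Read division can move counts between similar miRNAs such as miR-192-5p and miR-215-5p. The counts were rounded, filtered with filterByExpr, which kept 360 of 1508 miRNAs, scaled by TMM and fitted together for all 36 libraries with a mean per condition in edgeR 4.0.16 (R 4.3.3, quasi-likelihood test, two-sided, Benjamini-Hochberg adjustment over the 360 miRNAs of each of 33 comparisons). SEs were the log2 difference divided by the root of the F statistic. CPM used the scaled totals, and log2 CPM a prior count of 2. Counting intervals of summed counts were exact (Clopper-Pearson, 95%). They and the floor of 3 counts cover counting error only, since PCR copies are not independent molecules.

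With 2 replicates per condition, the common biological coefficient of variation was 20.9%, from 18 residual and 12.0 prior degrees of freedom. Groups came from the sample labels. All members were named in every comparison, together with the 3 tested miRNAs most correlated with each tested member, the other arms and relatives of the members, a list of other miRNAs reported to rise with p53 and marker lists for fibroblasts, blood, liver and epithelium. The members and lists were chosen with earlier results of these data known. Alternatives were DESeq2 1.42.0 (test and size factors), total counts, other count filters, fits on only the libraries compared and the replicate number as a block. Others were thinning to the smallest library, the study's thresholds (unadjusted p below 0.05 and a log2 difference over 1) and merged related miRNAs. The merged rows were miR-34a-5p with miR-34c-5p and the miR-449 5p arms, and miR-192-5p with miR-215-5p. A floor of 5 counts and leaving out each library in turn were also used. The scripts were tested on simulated data.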

Additional observations from a re-analysis of the deposited data

Results flagged for a closer look

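9 results differed between DDR-Sen and PMD-Sen by edgeR's test of the difference itself (adjusted p below 0.05). For the D1 to D16 means, DDR-Sen minus PMD-Sen, the log2 differences were 0.55 for miR-34a-5p, 0.92 for miR-34c-5p, 1.30 for miR-34b-3p and -1.38 for miR-449c-5p. At single days they were 1.30 for miR-34a-5p at D0, 1.00 for miR-34a-5p at D4 and 2.44 for miR-34c-5p at D2. The differences of the slopes were -0.34 for miR-34a-5p and -0.63 for miR-34c-5p. Of these miRNAs, miR-449c-5p passed the low-count filter only through PMD-Sen libraries, so its result is not free of that selection. No group had enough libraries for a test of single outlying libraries.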

How the results depend on the processing

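Of 1268 recomputed values, 1132 kept their direction and their side of the threshold, 86 lost and 18 gained the call, and 32 changed sign, of which 0 had been called. The causes of these changes were not tested, apart from filters that removed members. The difference of miR-34a-5p between the D1 to D16 means of the series was called under every setting but the study's thresholds (0.55, under their minimum of 1), where 2 members passed. It was 0.37 to 0.55 over the settings, and the merged setting tested the summed row in place of miR-34a-5p. The differences of miR-34c-5p and miR-34b-3p were called in all 28 fits without 1 library. With a mean of at least 10 counts 2 members were called there, since miR-34b-3p and miR-449c-5p were filtered out, and with thinning to the smallest library 1, since few members passed the filter.

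The DDR-Sen mean of miR-34a-5p against Ctrl was not called with total counts (0.59), without a filter (0.77), with thinning (0.67) or by the study's thresholds (0.77), which left 0 members. With DESeq2 size factors, total counts, no filter or thinning, 0 members were called at DDR-Sen D4 against Ctrl and at matched D4, and with no filter or thinning 0 at PMD-Sen D16 against Ctrl. The call of miR-34a-5p itself at DDR-Sen D4 against Ctrl and at matched D4 was lost under these 4 settings and by the study's thresholds. At PMD-Sen D16 against Ctrl it was lost under the same settings and by DESeq2's adjusted p. The members counted there under such settings were others: the study's thresholds passed miR-192-5p, which was lower, at DDR-Sen D4 against Ctrl. With miR-34a-5p, miR-34c-5p, miR-449a, miR-449b-5p and miR-449c-5p merged into a single row, that row was not called in these comparisons. Matched D0 had 0 members called with thinning and with only the libraries compared, and matched D2 had 0 with thinning. Fits on only the libraries compared called 1 member each at DDR-Sen D2, D3, D6, D8 and D16 against Ctrl and at matched D3, 2 at matched D2 and 3 at PMD-Sen D16 against Ctrl, where a mean of at least 10 counts called 2. Matched D1 had 2 members with no filter and 1 each with DESeq2's adjusted p, the study's thresholds and thinning. By the study's thresholds 1 member passed at DDR-Sen D0, PMD-Sen D2, PMD-Sen D3 and RS against Ctrl and at PMD-Sen D16 against RS, 2 at matched D0, D3 and D4 and 3 at matched D2. For the PMD-Sen slope 1 member was called with no filter and 1 with thinning, for the DDR-Sen slope 1 with thinning, and for the difference of the slopes 1 with DESeq2's adjusted p and 1 with thinning. The share of all miRNAs called or passing was not counted under any setting of this section. These numbers of members therefore cannot be set against a background share.

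These values changed sign: miR-34a-5p against Ctrl at PMD-Sen D2 was 0.00617 with total counts and 0.15 with thinning, and at PMD-Sen D4 0.0206 with no filter and 0.0433 with only the libraries compared. miR-194-5p had a mean against Ctrl of 0.22 in DDR-Sen and 0.15 in PMD-Sen with thinning, and a difference of the slopes of -0.0171 with no filter and -0.0634 with thinning.

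Without 1 library, miR-34a-5p against Ctrl was -0.36 to 0.18 at PMD-Sen D2, -0.0258 to 0.21 at D3 and -0.24 to 0.20 at D4, and its DDR-Sen mean was 0.66 to 0.81. It was -0.0187 to 0.42 at matched D8, -0.47 to 0.32 for DDR-Sen D16 against RS and -0.30 to 0.51 for PMD-Sen D16 against RS. The mean of miR-34c-5p against Ctrl was -0.16 to 1.02 in DDR-Sen and -1.04 to 0.14 in PMD-Sen, and its matched difference was -1.22 to 0.42 at D4 and -0.26 to 0.12 at D6. The mean difference of miR-34c-3p was -0.0773 to 1.30, and the difference of the slopes was -0.0531 to 0.14 for miR-194-5p and -0.11 to 0.18 for miR-192-5p. The number of members called was 0 to 0 at DDR-Sen D4, PMD-Sen D16 and matched D4, 0 to 1 for RS, the DDR-Sen mean, matched D0 and matched D2, 0 to 2 at matched D1, 1 to 3 for the PMD-Sen slope and 1 to 2 for the difference of the slopes.

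Same-numbered replicates did not deviate together: over 153 pairs of conditions the correlation of their deviations was -0.458 to 0.366 (median 0.0415), and 53 were over 0.1. With the replicate number as a block, RS against Ctrl had 1 member called, miR-34a-5p (0.72, adjusted p = 0.0445), and no other count of called members changed.

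Depth limits the rare members most: a library at 3 counts has 1.63 to 33.4 CPM, so the levels of miR-215-5p, miR-34b-5p and miR-34a-3p, and those of miR-449c-5p outside PMD-Sen, are close to the floor. Many PMD-Sen libraries of miR-34b-3p are close to it as well.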
